A study of Mus musculus with 12 samples.

Results

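Mouse embryonic stem (ES) cells that carry the N1300T substitution in Tet2 were compared with ES cells in which Tet2 was knocked out. The comparison was made across all genes that passed a filter on low counts, 16014 of the 35976 genes in the deposited table, in 9 of the 12 libraries of the series. The tested cells are V6.5 ES cells labelled Tet1KO Tet2 N1300T, in 2 preparations coded 49 and 81 with 3 libraries each (A, B and C), and both preparations were weighted equally. The cells they were set against are V6.5 ES cells labelled Tet1 Tet2 DKO, a double knockout coded 41, with 3 libraries. The other 3 libraries, labelled Tet1KO, shared the model that estimates the spread and are given only where they help to place a value. Every group thus lacks Tet1 by its label, and none was treated. All cells were grown on gelatin in serum medium with LIF, the GSK3 inhibitor CHIR99021 and the MEK inhibitor PD0325901. V6.5 is a male line. The labels do not say whether 41, 49 and 81 are clones, pools or dates, nor whether the libraries of a group came from separate cultures, so the p-values measure the spread between these libraries, which may be technical. A difference between genotypes and a difference between the lines that carry them cannot be told apart.

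TET enzymes are dioxygenases that use iron and 2-oxoglutarate to oxidise the methyl group of 5-methylcytosine in DNA, which opens a route to loss of methylation through base excision repair or dilution at replication. ES cells express Tet1 and Tet2 together. TET2 is one of the genes most often mutated in leukaemia, and N1300T is a leukaemia-derived substitution in its catalytic region that the title of the series links to oxidation of thymine. Imprinted genes are read from 1 parental copy because of methylation set in the germ line, and they serve here as a group whose levels are known to depend on DNA methylation.

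Library totals lay between 31515011 (N1300T 49 C) and 57054862 counts (DKO A), and the genes tested held 99.97% of the counts. Mitochondrially encoded genes took 1.74% to 2.64% of the counts. On the first principal component of the 9 libraries, which held 57.9% of the variance of the 500 most variable genes, the 3 DKO libraries lay between -7.40 and -7.24 and the 6 N1300T libraries between -3.00 and 10.5. N1300T 49 C (-3.00) and N1300T 81 C (0.819) stood nearest to the DKO libraries. The second component, with 20% of the variance, separated the preparations, at 4.53 to 6.08 in N1300T 49 against -3.41 to -3.05 in N1300T 81. The 22 genes of the naive pluripotency list summed to 9095 to 9645 CPM (counts per 1e6 counts, scaled by the trimmed mean of M values, TMM) in N1300T and 8521 to 9056 CPM in DKO. All 22 were tested, and none was at 0 in the 9 libraries.

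The targeted gene stood higher in N1300T cells. Tet2, on chromosome 3 (GRCm38, chr3:133463677-133545136), was read at 138, 145 and 122.9 CPM in N1300T 49 and 156, 139.9 and 129.6 CPM in N1300T 81, against 93.7, 92 and 97.9 CPM in DKO. The groups did not overlap, and N1300T was 1.46 times DKO (log2 fold change 0.55 ± 0.075 (SE), edgeR adjusted p = 0.000472). The Tet1KO libraries held 181, 158 and 142 CPM. The DKO libraries therefore still held Tet2 reads. A table of counts per gene does not show which exons the reads came from, and it does not show the N1300T substitution itself. Tet1 was read at 176, 147 and 172 CPM in N1300T 49 and 170.3, 137 and 167 CPM in N1300T 81, against 174, 168 and 180.2 CPM in DKO, and the fit gave log2 fold change -0.11 ± 0.083 (SE), edgeR adjusted p = 0.515. All groups are labelled as Tet1 knockouts, and all held Tet1 reads. A deletion of part of a gene leaves reads from the rest, so the count of the whole gene does not check that label. Tet3 stood at 5.73 ± 0.718 CPM in N1300T against 5.91 ± 0.563 CPM in DKO (SD, n = 6 and 3), and the fit gave -0.05 ± 0.12 (SE) with an edgeR adjusted p of 0.864. Tdg, the glycosylase that removes formylcytosine and carboxylcytosine, stood at 33.5 ± 2.38 CPM in N1300T against 29.5 ± 1.897 CPM in DKO (SD, n = 6 and 3) (log2 fold change 0.18 ± 0.071 (SE), edgeR adjusted p = 0.158).

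Between N1300T and DKO, 597 genes (3.73% of those tested) had an adjusted p under 0.05 in edgeR's quasi-likelihood test with Benjamini-Hochberg adjustment over all genes tested. Of these, 273 were higher in N1300T (1.7%) and 324 were lower (2.02%). Most differences were small: the median absolute log2 fold change was 0.33 among the genes called higher and 0.50 among the genes called lower. Only 85 genes (0.531%) were called with more than a 2-fold difference, 18 higher (0.112%) and 67 lower (0.418%). In 516 of the called genes (3.22% of genes tested) all 6 N1300T libraries lay on 1 side of all 3 DKO libraries, 212 above (1.32%) and 304 below (1.9%). The test treats the 6 N1300T libraries as independent. Same-lettered libraries of the 2 preparations correlated, at 0.223, 0.552 and 0.500 for A, B and C, so the adjusted p-values may be too small. The count depended on single libraries. It was 126 without DKO A, 381 without DKO B, 107 without DKO C, 347 without N1300T 49 A, 387 without N1300T 49 B and 372 without N1300T 81 B, and 1053 without N1300T 81 C. It was 1488 without N1300T 49 C and N1300T 81 C together, an alternative chosen after seeing the data. Scaling by library size alone called 667 genes, of which 29.1% were higher, in place of 45.7% with TMM.

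Taken alone, N1300T 49 differed from DKO at 366 genes (2.29%; 206 higher, 1.29%, and 160 lower, 0.999%) and N1300T 81 at 379 genes (2.37%; 166 higher, 1.04%, and 213 lower, 1.33%). Both comparisons use the same 3 DKO libraries. Tested against each other, N1300T 49 and N1300T 81 differed at 58 genes (0.362%), 31 higher (0.194%) and 27 lower in N1300T 49 (0.169%). With the letters A, B and C as a block the count between the preparations was 105.

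**Figure D1:**
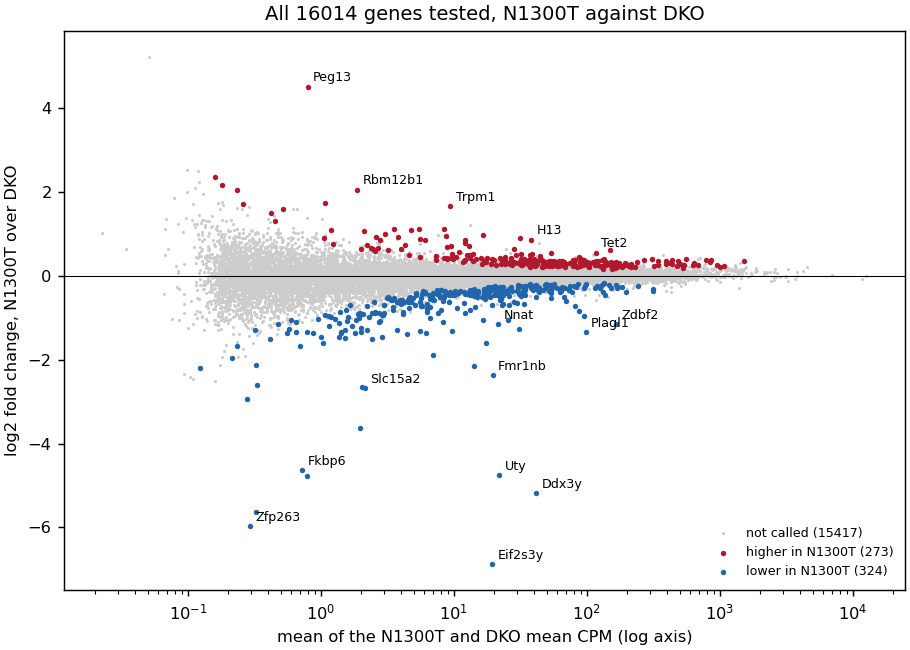
Log2 fold change of N1300T over DKO for the 16014 genes tested, against the mean of the N1300T and DKO mean CPM (log axis). Red points are the 273 genes called higher in N1300T, blue points the 324 called lower and grey points the rest. The genes far below the zero line include the Y-linked Eif2s3y, Ddx3y and Uty, and Peg13 stands at 4.50 among the genes called higher.

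Imprinted genes differed in both directions. The gene lists used here and below were written with earlier results of these data known. A share above that of all genes is therefore not independent support. Of 56 listed imprinted genes, 49 passed the low-count filter and 12 of them (24.5%, beside 3.73% of all genes) were called, 3 higher and 9 lower in N1300T. In 11 of the 12 the 6 N1300T libraries did not overlap the 3 DKO libraries, beside 516 of all 597 genes called. The median log2 fold change over the 49 genes was -0.06, against -0.00179 over all genes tested. The number called was 9 to 14 when 1 library was left out, 11 for N1300T 49 alone, 10 for N1300T 81 alone and 4 when the test was for more than a 1.5-fold difference. The summed level of the list was 3068 to 3361 CPM in N1300T and 3494 to 3544 CPM in DKO.

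Zdbf2, paternally expressed in mouse, had the smallest adjusted p among genes off the Y chromosome other than those with a predicted or clone name. It was read at 107, 106 and 93.5 CPM in N1300T 49 and 108, 96.4 and 108 CPM in N1300T 81, against 227, 222 and 239.8 CPM in DKO. All 6 N1300T libraries lay below all DKO libraries, and DKO was 2.23 times N1300T (log2 fold change -1.15 ± 0.057 (SE), edgeR adjusted p = 7.55e-10). The Tet1KO mean of Zdbf2 was 201 CPM. Zdbf2 was named by the rule on smallest adjusted p and is not on the list of 56. The non-coding gene 1700039I01Rik lies within the span of Zdbf2 and was also called lower (log2 fold change -1.30 ± 0.19 (SE), edgeR adjusted p = 0.000785), but reads of overlapping genes cannot be told apart here.

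Plagl1 (also Zac1, a zinc finger protein) is paternally expressed and sits at chr10:13090832-13131694. It was read at 52.7, 46.5 and 60.2 CPM in N1300T 49 and 59, 48.4 and 64.8 CPM in N1300T 81, against 137, 141 and 143 CPM in DKO. No library of either N1300T preparation reached a value that any DKO library had, and DKO was 2.54 times N1300T (log2 fold change -1.35 ± 0.088 (SE), edgeR adjusted p = 4.32e-08). The Tet1KO libraries, at 97.5, 101 and 123.4 CPM, lay between the groups. Nnat, which encodes neuronatin, a small membrane protein, is a paternally expressed gene inside an intron of Blcap. Nnat was read at 15.5, 12 and 18 CPM in N1300T 49 and 9.73, 12 and 13.5 CPM in N1300T 81, against 27.3, 31.3 and 30.1 CPM in DKO (log2 fold change -1.15 ± 0.11 (SE), edgeR adjusted p = 5.09e-06), again without overlap. The Tet1KO mean of Nnat was 16.9 CPM, below every DKO library. Its host Blcap was read at 28.5, 25.5 and 31.3 CPM in N1300T 49 and 29.2, 27.5 and 32.4 CPM in N1300T 81, against 27, 26.1 and 26 CPM in DKO, and the fit gave log2 fold change 0.14 ± 0.073 (SE), edgeR adjusted p = 0.309.

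H13 and Mcts2 went in opposite directions at 1 locus. Mcts2 is an intronless, paternally expressed copy of the Mcts1 gene that lies inside H13, a gene for an intramembrane protease whose full-length transcripts are maternally expressed in mouse. The annotation places Mcts2 at chr2:152687148-152687946 within H13 at chr2:152669422-152708668 on the same strand. H13 was read at 51, 45.7 and 51.3 CPM in N1300T 49 and 47.8, 47.7 and 51.6 CPM in N1300T 81, against 27.9, 26.4 and 27 CPM in DKO. Mcts2 was read at 15.6, 13.8 and 15.7 CPM in N1300T 49 and 12, 13.9 and 17.1 CPM in N1300T 81, against 24.1, 24.2 and 23 CPM in DKO. N1300T was 1.81 times DKO for H13 (log2 fold change 0.86 ± 0.062 (SE), edgeR adjusted p = 1.46e-07), while DKO was 1.62 times N1300T for Mcts2 (log2 fold change -0.70 ± 0.11 (SE), edgeR adjusted p = 0.00143). The groups did not overlap for either gene. The Tet1KO libraries held 41.7, 43 and 46.8 CPM of H13 and 21, 14.8 and 16 CPM of Mcts2. Reads of Mcts2 could be shared with Mcts1, from which it was copied, so its count is less certain than that of H13.

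The DNA just before the start of 3 paternally expressed genes that were lower in N1300T than in DKO is shown because the methylation of such sequence is what a TET enzyme acts on. Each is the run of 250 bases that ends at the base before the start in RefSeq on GRCm38.p6, on the plus strand, 5′ to 3′, and capitals mark every CG, the dinucleotide that carries methylation in mouse. The windows are chr2:152686898-152687147 for Mcts2, chr2:157559828-157560077 for Nnat and chr10:13090582-13090831 for Plagl1.
Mcts2: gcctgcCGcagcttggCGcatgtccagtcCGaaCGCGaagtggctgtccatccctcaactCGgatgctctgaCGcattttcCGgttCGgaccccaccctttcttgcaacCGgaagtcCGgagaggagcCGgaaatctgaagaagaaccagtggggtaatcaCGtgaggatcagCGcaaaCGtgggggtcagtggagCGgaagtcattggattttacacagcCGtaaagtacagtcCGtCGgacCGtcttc
Nnat: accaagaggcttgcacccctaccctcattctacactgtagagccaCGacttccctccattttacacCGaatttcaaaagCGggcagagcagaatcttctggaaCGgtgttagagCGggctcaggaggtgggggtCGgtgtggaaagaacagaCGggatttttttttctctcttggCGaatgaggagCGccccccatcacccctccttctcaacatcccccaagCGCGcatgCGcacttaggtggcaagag
Plagl1: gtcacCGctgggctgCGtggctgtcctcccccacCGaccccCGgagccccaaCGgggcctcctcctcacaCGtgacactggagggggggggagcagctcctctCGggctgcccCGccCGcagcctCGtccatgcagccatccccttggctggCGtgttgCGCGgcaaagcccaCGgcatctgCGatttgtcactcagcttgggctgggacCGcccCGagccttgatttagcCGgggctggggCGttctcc
The windows hold 20, 12 and 19 CG for Mcts2, Nnat and Plagl1, against a median of 6 over 32851 mouse windows of the same length. Among the tested genes that have a window (73.1%) the median was 16, taking for each gene the window with most CG. Against tested genes the 3 windows are thus not unusual in CG, and Nnat lies below that median. The letters TGCCGC, the core of the site that the imprint-keeping protein ZFP57 binds when methylated, were searched on both strands. They occur 1 time in the Mcts2 window on the printed strand and 1 time in the Plagl1 window on the other strand, where the printed strand reads GCGGCA. The Nnat window does not hold them. The windows of H13 and of Zrsr1, an imprinted gene described below, were also searched and are not printed. They hold 18 and 8 CG, and neither holds these letters on either strand. In all, 8.68% of the 32851 windows hold them on either strand, and 15.8% of the tested genes that have a window do. These are matches of letters and not measurements of methylation or binding, and the series as used here holds no methylation data.

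Peg13, a paternally expressed non-coding RNA in an intron of Trappc9, was the largest rise. It was read at 1.38, 1.54 and 1.87 CPM in N1300T 49 and 1.204, 1.54 and 1.63 CPM in N1300T 81, against 0.0344, 0.0973 and 0.0702 CPM in DKO, a total of 401 counts in the 6 N1300T libraries and 10 in the 3 DKO libraries. It was close to the limit of detection in DKO and present in every N1300T library (log2 fold change 4.50 ± 0.38 (SE), edgeR adjusted p = 1.17e-06). It stood at 0.806, 0.407 and 0.902 CPM in the Tet1KO libraries. Trappc9 was read at 27.4, 29.9 and 33.2 CPM in N1300T 49 and 28.6, 30.5 and 27.9 CPM in N1300T 81, against 28.6, 29.95 and 28.6 CPM in DKO, with a log2 fold change of 0.03 ± 0.074 (SE) and an edgeR adjusted p of 0.896. Chrac1, the next tested gene along, was called higher as well (log2 fold change 0.25 ± 0.062 (SE), edgeR adjusted p = 0.034). Chrac1 lost its call without N1300T 49 A, N1300T 81 B or any DKO library.

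Of the other imprinted genes called, Peg10, Sgce, Igf2 and Impact were lower and Dio3 was higher in N1300T. Peg10, a placental gene derived from a retrotransposon, was read at 54.4, 53.9 and 86.9 CPM in N1300T 49 and 63.1, 53.5 and 74.8 CPM in N1300T 81, against 124, 127 and 127 CPM in DKO (log2 fold change -0.97 ± 0.14 (SE), edgeR adjusted p = 0.0011). Sgce, its neighbour, which shares a start region with it and encodes epsilon-sarcoglycan, stood at 0.791 ± 0.195 CPM in N1300T against 1.51 ± 0.187 CPM in DKO (SD, n = 6 and 3) (log2 fold change -0.95 ± 0.23 (SE), edgeR adjusted p = 0.031). Sgce lost its call without N1300T 49 A, N1300T 49 B, N1300T 81 B or any DKO library. Igf2, the insulin-like growth factor, was low throughout, at 2.38, 2.599 and 1.93 CPM in N1300T 49 and 1.42, 1.88 and 1.76 CPM in N1300T 81, against 3.65, 4.33 and 3.44 CPM in DKO, and the groups did not overlap (log2 fold change -0.94 ± 0.16 (SE), edgeR adjusted p = 0.00437). Impact was lower by little, at 88.2 ± 2.82 CPM in N1300T against 105 ± 1.66 CPM in DKO (SD, n = 6 and 3) (log2 fold change -0.25 ± 0.050 (SE), edgeR adjusted p = 0.0111). Impact lost its call without DKO A or DKO C. Dio3, the thyroid hormone deiodinase, stood at 4.96 ± 1.48 CPM in N1300T against 2.62 ± 0.304 CPM in DKO (SD, n = 6 and 3) (log2 fold change 0.93 ± 0.25 (SE), edgeR adjusted p = 0.0437). Dio3 lost its call without N1300T 49 A, N1300T 49 B, N1300T 81 A, N1300T 81 B, Tet1KO A or any DKO library. Tet1KO means were 143 CPM for Peg10, 1.76 CPM for Sgce, 7.71 CPM for Igf2, 101 CPM for Impact and 2.93 CPM for Dio3.

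At 3 imprinted genes the preparations differed from each other. Grb10, an adaptor of growth factor receptors, was read at 80.8, 76.8 and 97.4 CPM in N1300T 49 and 44.2, 36.7 and 50.03 CPM in N1300T 81, against 111, 106 and 113 CPM in DKO. Both preparations lay below DKO, but N1300T 81 lay further below: the log2 fold change was -0.37 ± 0.12 (edgeR adjusted p = 0.101) for N1300T 49 and -1.33 ± 0.12 (edgeR adjusted p = 3.36e-06) for N1300T 81, and the preparations differed by 0.96 ± 0.12 (SE, edgeR adjusted p = 0.000311). Zrsr1, an intronless copy of a splicing factor gene inside Commd1, was read at 15.2, 13.9 and 16.8 CPM in N1300T 49 and 29.5, 26.8 and 31.7 CPM in N1300T 81, against 30.5, 29.5 and 29.1 CPM in DKO. Only the N1300T 49 libraries lay apart: the log2 fold change was -0.96 ± 0.083 (edgeR adjusted p = 2.26e-06) for N1300T 49 and -0.02 ± 0.079 (edgeR adjusted p = 0.941) for N1300T 81, a difference of -0.94 ± 0.083 (SE, edgeR adjusted p = 5.69e-06). Commd1 was read at 80.6, 64.5 and 64 CPM in N1300T 49 and 60.2, 66.8 and 64.1 CPM in N1300T 81, against 59.2, 62.9 and 53.1 CPM in DKO (log2 fold change 0.19 ± 0.080 (SE), edgeR adjusted p = 0.185). H19, the maternally expressed RNA next to Igf2, was read at 9.67, 12.5 and 8.76 CPM in N1300T 49 and 22.3, 22.2 and 18.5 CPM in N1300T 81, against 13.8, 16.1 and 15.1 CPM in DKO. N1300T 49 lay below DKO (-0.54 ± 0.12 (edgeR adjusted p = 0.0263)) and N1300T 81 above it (0.49 ± 0.11 (edgeR adjusted p = 0.03)), so the mean over the preparations (-0.03 ± 0.100 (SE)) hides a difference of -1.03 ± 0.12 (SE, edgeR adjusted p = 0.000131). Tet1KO means were 57.7 CPM for Grb10, 29.2 CPM for Zrsr1 and 13.2 CPM for H19. Zrsr1, H19, Igf2, Sgce, Grb10, Mcts2, Impact and the host genes were chosen after their values were seen.

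**Figure D2:**
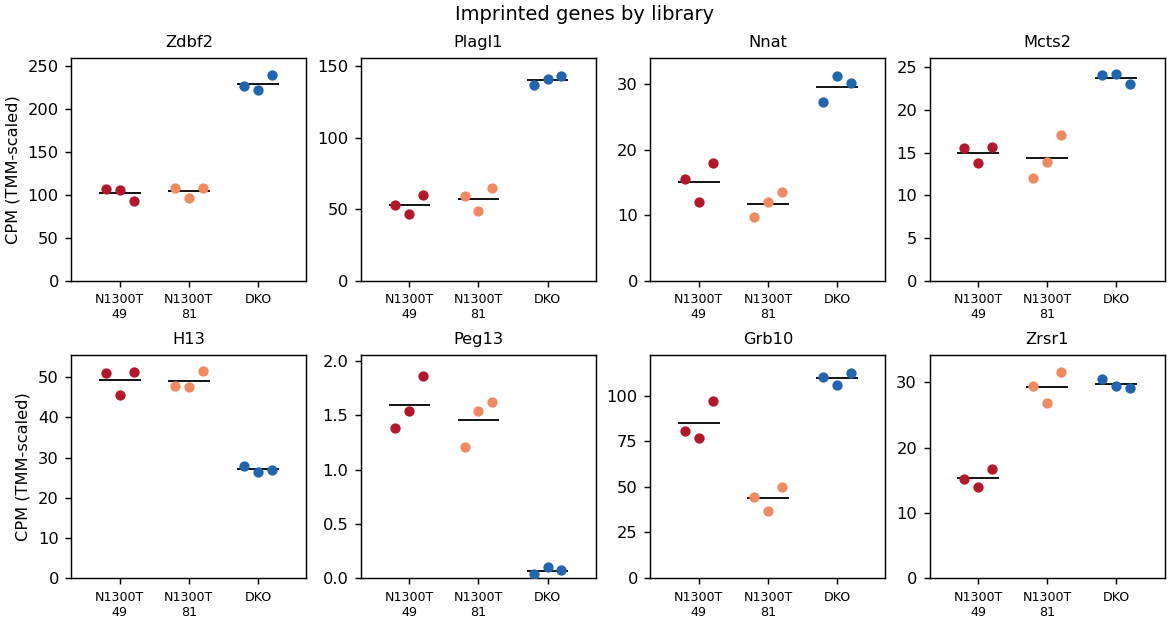
CPM (TMM-scaled, linear axis from 0) of 8 imprinted genes in each library of N1300T 49, N1300T 81 and DKO. Points are libraries and bars are the mean of 3. Zdbf2, Plagl1, Nnat and Mcts2 lie lower and H13 and Peg13 higher in both preparations than in DKO, whereas Grb10 and Zrsr1 differ between the preparations.

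Genes of the Y chromosome were lower in N1300T 81, whereas in N1300T 49 alone only Eif2s3y was called. Of 10 listed Y-linked genes 4 passed the filter and all 4 were called lower. They also formed the only run of 3 or more neighbouring tested genes called in 1 direction (GRCm38, chrY:818612-1286628). With the 6 N1300T libraries as 1 group the calls of Ddx3y, Uty and Uba1y were lost. Eif2s3y, a translation initiation factor subunit needed for spermatogonia, was read at 0.5699, 0.704 and 0.917 CPM in N1300T 49 and 0.07897, 0.1503 and 0.2198 CPM in N1300T 81, against 39.6, 35.6 and 40.3 CPM in DKO, a loss in both preparations (log2 fold change -6.88 ± 0.12 (SE), edgeR adjusted p = 5.35e-17). Ddx3y, an RNA helicase, was read at 47.1, 45.8 and 50.5 CPM in N1300T 49 and 0.0395, 0 and 0.132 CPM in N1300T 81, against 59.3, 58 and 61.1 CPM in DKO. Uty, a histone demethylase homologue, was read at 32.6, 26.8 and 25 CPM in N1300T 49 and 0, 0 and 0.132 CPM in N1300T 81, against 29.9, 26.2 and 32.9 CPM in DKO. For both genes the N1300T 81 libraries were at or near 0, with 8 counts of Ddx3y and 6 of Uty over the 3 libraries, while N1300T 49 gave -0.32 ± 0.11 (edgeR adjusted p = 0.133) for Ddx3y and -0.08 ± 0.14 (edgeR adjusted p = 0.845) for Uty against DKO. Uba1y, a ubiquitin activating enzyme, was read at 1.65, 1.54 and 1.49 CPM in N1300T 49 and 0.336, 0.244 and 0.242 CPM in N1300T 81, against 2.098, 1.53 and 1.77 CPM in DKO. Against DKO it gave -0.21 ± 0.20 (edgeR adjusted p = 0.657) in N1300T 49 and -2.71 ± 0.24 (edgeR adjusted p = 3.36e-06) in N1300T 81. Counts assigned to chromosome Y summed to 2597 to 4214 in the N1300T 49 libraries and 229 to 268 in the N1300T 81 libraries, against 5149 to 8051 in DKO. The 4 genes differed between the preparations by 2.25 ± 0.30 (SE, edgeR adjusted p = 0.000782) for Eif2s3y, 9.73 ± 0.24 (SE, edgeR adjusted p = 2.47e-14) for Ddx3y, 9.36 ± 0.30 (SE, edgeR adjusted p = 1.45e-12) for Uty and 2.50 ± 0.25 (SE, edgeR adjusted p = 1.98e-05) for Uba1y. The fitted values of Ddx3y and Uty depend on the prior count. With genes of chromosomes X and Y left out, 529 genes were called in place of 597.

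Several other genes called against DKO also differed between the preparations. Fmr1nb, an X-linked gene expressed in testis, was read at 34.2, 29.6 and 36.3 CPM in N1300T 49 and 0.375, 0.338 and 0.989 CPM in N1300T 81, against 21.5, 24.2 and 21.2 CPM in DKO, near 0 in N1300T 81 and above DKO in every N1300T 49 library. N1300T 49 gave 0.58 ± 0.15 (edgeR adjusted p = 0.0584) and N1300T 81 -5.33 ± 0.23 (edgeR adjusted p = 7.95e-11), a difference of 5.91 ± 0.23 (SE, edgeR adjusted p = 1.8e-11). Arhgap30, a GTPase activating protein, was the reverse case and was read at 2.77, 3.33 and 1.803 CPM in N1300T 49 and 22.2, 22.5 and 18.8 CPM in N1300T 81, against 23, 21.8 and 23.5 CPM in DKO, low in N1300T 49 and overlapping DKO in N1300T 81 (-2.99 ± 0.15 (SE, edgeR adjusted p = 7.18e-10) between preparations). Gm32885, a predicted non-coding RNA on chromosome 15, was read at 1.85, 1.19 and 1.99 CPM in N1300T 49 and 12.6, 13.5 and 13.5 CPM in N1300T 81, against 20.2, 21.5 and 20.6 CPM in DKO. Both preparations lay below DKO, N1300T 49 by more, with a difference of -2.97 ± 0.13 (SE, edgeR adjusted p = 1.79e-10), and its adjusted p against DKO was 2.01e-10 in edgeR. Gm32885 and Gm21283 were chosen after their values were seen. Hsf2bp, a meiotic partner of the repair protein BRCA2, was read at 13.3, 11.5 and 12.3 CPM in N1300T 49 and 24.4, 24.7 and 27.6 CPM in N1300T 81, against 44.1, 44.4 and 40.3 CPM in DKO. It was lower in both preparations, at -1.79 ± 0.095 (edgeR adjusted p = 2.56e-09) in N1300T 49 and -0.75 ± 0.089 (edgeR adjusted p = 0.000112) in N1300T 81, and more so in N1300T 49 (-1.04 ± 0.094 (SE, edgeR adjusted p = 7.61e-06)). Ushbp1, a gene for a harmonin-binding protein, was read at 1.81, 2.14 and 1.898 CPM in N1300T 49 and 3.12, 4.64 and 5.17 CPM in N1300T 81, against 11.3, 11.2 and 9.63 CPM in DKO and followed the same order (-1.14 ± 0.20 (SE, edgeR adjusted p = 0.0111)). Slc35c1, the GDP-fucose transporter, was read at 18.8, 22.6 and 19.9 CPM in N1300T 49 and 32, 32.2 and 29.3 CPM in N1300T 81, against 19.09, 19.8 and 17.4 CPM in DKO. Its N1300T 81 libraries lay above DKO, and it differed by -0.61 ± 0.086 (SE, edgeR adjusted p = 0.00126) between the preparations. The call of Slc35c1 in N1300T against DKO (0.43 ± 0.075 (SE)) was lost without DKO C.

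**Figure D3:**
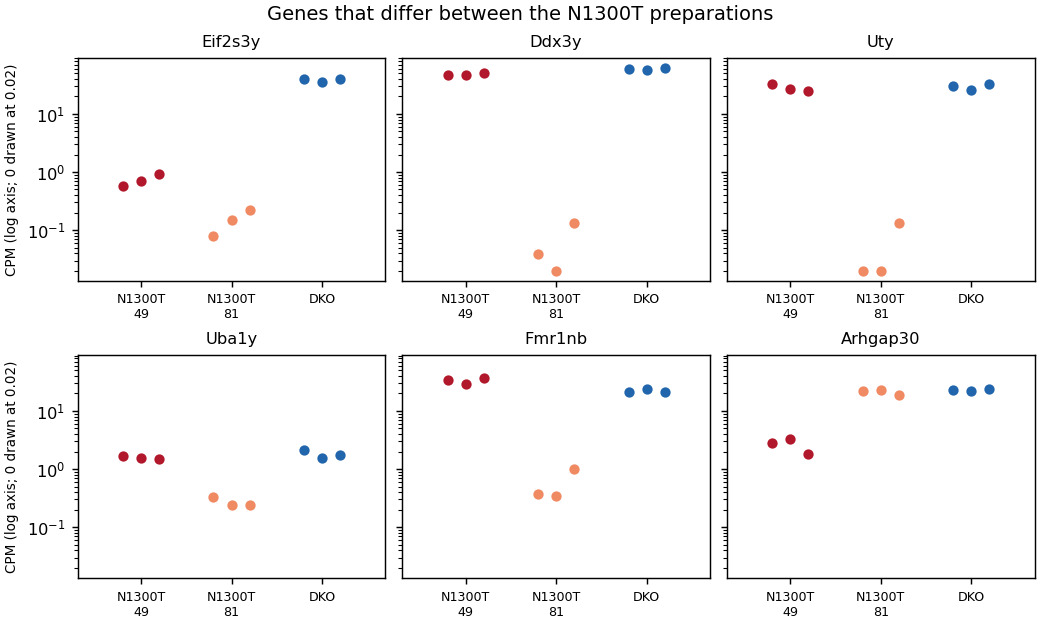
CPM on a log axis, with 0 drawn at 0.02, of 6 genes that are called between the preparations, in each library of N1300T 49, N1300T 81 and DKO. Eif2s3y is low in both preparations, Ddx3y, Uty, Uba1y and Fmr1nb are low in N1300T 81, and Arhgap30 is low in N1300T 49.

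Away from these loci, the largest rises over DKO among named genes were at low to moderate levels. Over all genes called higher the median level was 48.6 CPM, against 14.9 CPM over all genes tested. Rbm12b1, an RNA-binding protein gene, was read at 3.36, 3.44 and 3.16 CPM in N1300T 49 and 2.72, 2.31 and 3.12 CPM in N1300T 81, against 0.791, 0.608 and 0.754 CPM in DKO (log2 fold change 2.05 ± 0.18 (SE), edgeR adjusted p = 1.5e-06), and the groups stood far apart. Its neighbour and near copy Rbm12b2 stood at 14.1 ± 1.12 CPM in N1300T against 15.9 ± 1.16 CPM in DKO (SD, n = 6 and 3), with a log2 fold change of -0.18 ± 0.095 (SE) and an edgeR adjusted p of 0.303. Reads shared between the copies make both counts uncertain. Trpm1, a cation channel of melanocytes and retina, was read at 12.2, 16.1 and 8.76 CPM in N1300T 49 and 18.2, 20.8 and 9.85 CPM in N1300T 81, against 4.57, 4.599 and 4.35 CPM in DKO, all 6 N1300T values above DKO although the N1300T values ranged widely (log2 fold change 1.66 ± 0.22 (SE), edgeR adjusted p = 0.000441). Aass, which starts lysine breakdown, was read at 25.1, 21.1 and 20.9 CPM in N1300T 49 and 23.5, 21.1 and 20.7 CPM in N1300T 81, against 11.5, 11.6 and 10.6 CPM in DKO, a tight separation with a log2 fold change of 0.98 ± 0.089 (SE) and an edgeR adjusted p of 2.92e-06. Hal, the first enzyme of histidine breakdown, stood at 6.49 ± 1.28 CPM in N1300T against 3.09 ± 0.459 CPM in DKO (SD, n = 6 and 3) (log2 fold change 1.08 ± 0.17 (SE), edgeR adjusted p = 0.00143). Nlrp4a, an oocyte-expressed member of a large family of near copies, stood at 2.87 ± 0.131 CPM in N1300T against 1.37 ± 0.221 CPM in DKO (SD, n = 6 and 3) (log2 fold change 1.06 ± 0.16 (SE), edgeR adjusted p = 0.00159). Tekt1, a ciliary tektin, stood at 7.59 ± 2.71 CPM in N1300T against 3.37 ± 0.334 CPM in DKO (SD, n = 6 and 3) (log2 fold change 1.12 ± 0.19 (SE), edgeR adjusted p = 0.00298). None of these lost its call when any 1 library was left out. The Tet1KO means were 3.63 CPM for Rbm12b1, 24.5 CPM for Trpm1, 28.6 CPM for Aass, 9.69 CPM for Hal, 2.85 CPM for Nlrp4a and 6.80 CPM for Tekt1. Tet1KO thus also lay above DKO in each. Throughout, a rise or fall is relative to DKO alone.

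Other rises rested on particular libraries. Oas1a, an interferon-induced oligoadenylate synthetase, was read at 12.5, 11.2 and 6.04 CPM in N1300T 49 and 16.4, 13.8 and 9.23 CPM in N1300T 81, against 4.99, 6.35 and 4.77 CPM in DKO (log2 fold change 1.11 ± 0.21 (SE), edgeR adjusted p = 0.00775), with N1300T 49 C inside the DKO range. Its neighbour and near copy Oas1g stood at 1.67 ± 0.678 CPM in N1300T against 0.495 ± 0.104 CPM in DKO (SD, n = 6 and 3) (log2 fold change 1.74 ± 0.39 (SE), edgeR adjusted p = 0.0189). The call of Oas1a was lost without DKO A or DKO C, and that of Oas1g without N1300T 49 A or any DKO library. Vwf, the clotting factor of endothelium, stood at 4.83 ± 1.12 CPM in N1300T against 2.27 ± 0.661 CPM in DKO (SD, n = 6 and 3) (log2 fold change 1.10 ± 0.24 (SE), edgeR adjusted p = 0.0172). Blnk, a B-cell adaptor, stood at 1.63 ± 0.378 CPM in N1300T against 0.751 ± 0.223 CPM in DKO (SD, n = 6 and 3) (log2 fold change 1.09 ± 0.22 (SE), edgeR adjusted p = 0.0106). Myl7, a cardiac myosin light chain, stood at 11.4 ± 3.45 CPM in N1300T against 5.89 ± 1.15 CPM in DKO (SD, n = 6 and 3) (log2 fold change 0.95 ± 0.19 (SE), edgeR adjusted p = 0.0089). Mobp, a myelin protein, stood at 4.08 ± 0.782 CPM in N1300T against 2.02 ± 0.289 CPM in DKO (SD, n = 6 and 3) (log2 fold change 1.01 ± 0.20 (SE), edgeR adjusted p = 0.0089). Pla2g4e, a phospholipase, stood at 3.38 ± 0.713 CPM in N1300T against 1.79 ± 0.131 CPM in DKO (SD, n = 6 and 3) (log2 fold change 0.92 ± 0.19 (SE), edgeR adjusted p = 0.0115). The calls of Vwf, Myl7 and Pla2g4e were lost without DKO A or DKO C, and those of Blnk and Mobp without DKO C. Rnf213, a large ubiquitin ligase induced by interferon, stood at 41.1 ± 12.8 CPM in N1300T against 22.1 ± 0.522 CPM in DKO (SD, n = 6 and 3) (log2 fold change 0.89 ± 0.20 (SE), edgeR adjusted p = 0.0196). Rnf213 lost its call without any DKO library. Ubxn10, a ciliary protein, stood at 1.38 ± 0.334 CPM in N1300T against 0.738 ± 0.146 CPM in DKO (SD, n = 6 and 3) (log2 fold change 0.91 ± 0.23 (SE), edgeR adjusted p = 0.0403) and lost it without N1300T 49 B, N1300T 49 C, N1300T 81 A, N1300T 81 B, Tet1KO A or any DKO library. Of the 23 interferon and antigen presentation genes tested, Oas1a was called higher and B2m, the light chain of class I molecules, lower (8.7% called, beside 3.73% of all genes). B2m stood at 12.7 ± 1.56 CPM in N1300T against 15.8 ± 0.648 CPM in DKO (SD, n = 6 and 3) (log2 fold change -0.32 ± 0.083 (SE), edgeR adjusted p = 0.0406). B2m lost its call without N1300T 49 A, N1300T 49 B, N1300T 81 A, N1300T 81 B or any DKO library.

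Among further falls off the Y chromosome were genes present at a few CPM in DKO. Gm21283, a predicted non-coding RNA on chromosome 8, was read at 0.285, 0.244 and 0.348 CPM in N1300T 49 and 0.237, 0.357 and 0.308 CPM in N1300T 81, against 3.63, 3.796 and 3.596 CPM in DKO and stood low in every N1300T library (log2 fold change -3.62 ± 0.19 (SE), edgeR adjusted p = 1.51e-09). Slc15a2, a transporter of small peptides, was read at 0.366, 0.487 and 0.728 CPM in N1300T 49 and 0.809, 0.789 and 0.352 CPM in N1300T 81, against 3.59, 3.26 and 4.24 CPM in DKO, with DKO at 6.38 times N1300T (log2 fold change -2.67 ± 0.22 (SE), edgeR adjusted p = 8.49e-07). Sh3bgrl, an X-linked gene for a small adaptor, was read at 0.733, 1.19 and 0.443 CPM in N1300T 49 and 0.474, 0.563 and 0.0879 CPM in N1300T 81, against 3.56, 3.26 and 3.67 CPM in DKO (log2 fold change -2.66 ± 0.27 (SE), edgeR adjusted p = 1.13e-05). In both genes the Tet1KO libraries stood near DKO, with 4.74, 5.36 and 3.56 CPM of Slc15a2 and 3.84, 3.76 and 3.702 CPM of Sh3bgrl. Hydin, a ciliary axoneme protein, was read at 1.73, 1.44 and 1.64 CPM in N1300T 49 and 1.24, 1.43 and 1.69 CPM in N1300T 81, against 4.73, 3.97 and 3.89 CPM in DKO (log2 fold change -1.46 ± 0.12 (SE), edgeR adjusted p = 1.04e-06). Gm21283 lies within the span of Hydin, and reads of overlapping genes cannot be told apart here, so the falls of Gm21283 and Hydin may not be separate. Gbp2, an interferon-induced GTPase, was read at 0.5903, 0.975 and 1.08 CPM in N1300T 49 and 0.612, 0.714 and 0.879 CPM in N1300T 81, against 1.94, 2.17 and 2.596 CPM in DKO (log2 fold change -1.49 ± 0.20 (SE), edgeR adjusted p = 0.000468), next to its near copy Gbp2b at 0.448 ± 0.1804 CPM in N1300T against 1.12 ± 0.152 CPM in DKO (SD, n = 6 and 3) (log2 fold change -1.35 ± 0.33 (SE), edgeR adjusted p = 0.0322). As3mt, the arsenic methyltransferase, stood at 1.02 ± 0.332 CPM in N1300T against 2.61 ± 0.116 CPM in DKO (SD, n = 6 and 3) (log2 fold change -1.37 ± 0.20 (SE), edgeR adjusted p = 0.000799). Hs6st2, an X-linked heparan sulfate sulfotransferase, stood at 2.496 ± 0.973 CPM in N1300T against 6.36 ± 0.794 CPM in DKO (SD, n = 6 and 3) (log2 fold change -1.38 ± 0.24 (SE), edgeR adjusted p = 0.00437). Prss23, a serine protease, stood at 0.552 ± 0.229 CPM in N1300T against 1.47 ± 0.297 CPM in DKO (SD, n = 6 and 3) (log2 fold change -1.45 ± 0.28 (SE), edgeR adjusted p = 0.0089). Odf2l, a centriole protein, stood at 0.337 ± 0.145 CPM in N1300T against 1.05 ± 0.238 CPM in DKO (SD, n = 6 and 3) (log2 fold change -1.66 ± 0.32 (SE), edgeR adjusted p = 0.0089). All of these but Gbp2b kept their call without any 1 library. Gbp2b lost it without N1300T 49 A, N1300T 81 B or any DKO library. Mean Tet1KO levels were near or below N1300T for Gbp2 (0.588 CPM), Gbp2b (0.219 CPM), Prss23 (0.431 CPM) and Hs6st2 (2.64 CPM). They were above DKO for Gm21283 (6.70 CPM), Hydin (11.5 CPM), As3mt (9.34 CPM) and Odf2l (1.77 CPM).

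Other falls rested on particular libraries. Thbs1, the matrix protein thrombospondin 1, stood at 3.49 ± 1.68 CPM in N1300T against 8.86 ± 0.832 CPM in DKO (SD, n = 6 and 3) (log2 fold change -1.37 ± 0.28 (SE), edgeR adjusted p = 0.0116). Thbs1 lost its call without DKO A or DKO C. Acta2, smooth muscle actin, was read at 0.489, 2.71 and 2.88 CPM in N1300T 49 and 0.553, 1.24 and 0.418 CPM in N1300T 81, against 3.01, 4.33 and 3.05 CPM in DKO (log2 fold change -1.51 ± 0.37 (SE), edgeR adjusted p = 0.0322), and its call was lost without N1300T 81 A or any DKO library. Nefm, a neurofilament subunit, stood at 0.521 ± 0.4096 CPM in N1300T against 1.55 ± 0.208 CPM in DKO (SD, n = 6 and 3) (log2 fold change -1.61 ± 0.42 (SE), edgeR adjusted p = 0.0419). Nefm lost its call without N1300T 49 A, N1300T 49 B, N1300T 81 A, N1300T 81 B, Tet1KO A or any DKO library. Id1, an inhibitor of helix-loop-helix factors and the next tested gene after Mcts2, was read at 18.7, 12 and 29.4 CPM in N1300T 49 and 10.5, 8.32 and 22.3 CPM in N1300T 81, against 35.4, 38.3 and 29.99 CPM in DKO (log2 fold change -1.06 ± 0.27 (SE), edgeR adjusted p = 0.035). Id1 lost its call without N1300T 49 A, N1300T 49 B, N1300T 81 A, N1300T 81 B, Tet1KO A or any DKO library, and DESeq2 did not call it.

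Among germline genes of the kind silenced by promoter methylation in other cells, 2 of 28 tested were called, both lower (7.14%, beside 3.73% of all genes), and the median log2 fold change was -0.12. In N1300T 49 alone 4 were called, 2 higher and 2 lower, and in N1300T 81 alone 3, all lower. The count was 4 without N1300T 81 C. Fkbp6, a chaperone of the piRNA pathway, was read at 0, 0 and 0.0633 CPM in N1300T 49 and 0.07897, 0.263 and 0.0879 CPM in N1300T 81, against 1.204, 1.44 and 1.44 CPM in DKO, in all 24 counts in the 6 N1300T libraries against 211 in the 3 DKO libraries, with an edgeR adjusted p of 5.24e-05. Meioc, a factor of meiotic entry, stood at 17.8 ± 1.22 CPM in N1300T against 24.6 ± 1.22 CPM in DKO (SD, n = 6 and 3) (log2 fold change -0.47 ± 0.083 (SE), edgeR adjusted p = 0.00502). Meioc lost its call without DKO A or DKO C. Zfp263, 1 of 10 called among 326 numbered zinc finger genes tested (3.07%; 1 higher, 9 lower), had 4 counts in the 6 N1300T libraries against 88 in DKO, with an edgeR adjusted p of 0.000441. It stood at 11.7, 5.05 and 4.58 CPM in the Tet1KO libraries. Both N1300T and DKO were low for Zfp263, and no fold is given for it. The count of 10 zinc finger genes was 1 without DKO A, 6 without DKO B, 1 without DKO C and 18 without N1300T 81 C. Zfp560 had 32 counts in N1300T against 86 in DKO (edgeR adjusted p = 0.0089, lost without DKO A or DKO C). Zfp948 stood at 6.36 ± 0.408 CPM in N1300T against 8.54 ± 0.607 CPM in DKO (SD, n = 6 and 3) and Zfp428 at 114 ± 3.28 CPM in N1300T against 92.4 ± 9.51 CPM in DKO (SD, n = 6 and 3), with log2 fold changes of -0.43 ± 0.087 (SE) and 0.30 ± 0.066 (SE) and edgeR adjusted p of 0.0116 and 0.0181. Both lost their call without DKO A or DKO C.

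The enzymes that write, read and erase DNA methylation showed few differences. Of 24 TET and base excision repair genes tested, Tet2 alone was called (4.17%, beside 3.73% of all genes), with a median log2 fold change of 0.04 over the list. None of 19 genes of the DNA methylation machinery was called by edgeR's quasi-likelihood test, 3 had an unadjusted p under 0.05, DESeq2 called 0, and the list's log2 fold changes ran from -0.28 to 0.17 (median -0.02). None of 41 other 2-oxoglutarate dioxygenases was called by edgeR, 9 had an unadjusted p under 0.05, DESeq2 called 2, and the median was 0.05. Without N1300T 81 C, 3 of the 41 were called. Among 26 enzymes that make or use isocitrate and 2-oxoglutarate, Idh3g, a subunit of mitochondrial isocitrate dehydrogenase, was called higher (3.85%). Idh3g stood at 141 ± 3.63 CPM in N1300T against 126 ± 2.56 CPM in DKO (SD, n = 6 and 3) (log2 fold change 0.17 ± 0.045 (SE), edgeR adjusted p = 0.0491), and the call was lost without any 1 of N1300T 49 A, N1300T 49 B, N1300T 49 C, N1300T 81 A, N1300T 81 B, Tet1KO A or any DKO library.

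Among trophoblast markers those called were lower in N1300T. Of 17 trophoblast markers tested 4 were called, all lower (23.5%, beside 3.73% of all genes): Krt8, Krt18, Krt19 and Peg10. The first 3 are keratins of simple epithelium. The median log2 fold change was -0.34, with a positive sign for 5 of the 17, and 4 or 5 members were called whichever library was left out. Peg10 is also counted among the imprinted genes called. Krt8 was read at 40.1, 39.5 and 48.7 CPM in N1300T 49 and 41.9, 47.2 and 49.6 CPM in N1300T 81, against 64.6, 66.6 and 60.7 CPM in DKO (log2 fold change -0.53 ± 0.075 (SE), edgeR adjusted p = 0.000775). Krt18, which pairs with Krt8 in filaments and lies next to it, was read at 15.3, 17.6 and 19.7 CPM in N1300T 49 and 16, 18.3 and 19.23 CPM in N1300T 81, against 29.2, 29.5 and 27.5 CPM in DKO (log2 fold change -0.70 ± 0.10 (SE), edgeR adjusted p = 0.000942). Krt19 was read at 3.75, 5.31 and 4.78 CPM in N1300T 49 and 3.36, 4.996 and 4.48 CPM in N1300T 81, against 7.94, 9.17 and 6.998 CPM in DKO (log2 fold change -0.86 ± 0.14 (SE), edgeR adjusted p = 0.00284). No N1300T library overlapped a DKO library for any of the 3 keratins, and Krt8 stood at 43.9, 42.9 and 50.8 CPM in the Tet1KO libraries. Krt8 and Krt18 have processed copies in the genome that could take some of their reads. The summed level of the trophoblast list was 226 to 273 CPM in N1300T and 342 to 353 CPM in DKO, and 3 of its 22 members were at 0 in all 9 libraries. That sum includes the 4 called genes, so it is not separate from their falls. Peg10 alone averaged 64.4 CPM in N1300T and 126 CPM in DKO. In bulk RNA fewer cells of a type and less RNA per cell cannot be told apart.

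Among 22 naive pluripotency genes tested, 2 were called, both higher (9.09%, beside 3.73% of all genes), and the median log2 fold change was 0.10. Nr0b1, an X-linked nuclear receptor of naive cells, stood at 149 ± 6.53 CPM in N1300T against 124 ± 8.88 CPM in DKO (SD, n = 6 and 3) (log2 fold change 0.27 ± 0.055 (SE), edgeR adjusted p = 0.0119). Nr0b1 lost its call without DKO A or DKO C. Prdm14, a repressor of de novo DNA methyltransferase genes, stood at 35.2 ± 3.86 CPM in N1300T against 28 ± 1.69 CPM in DKO (SD, n = 6 and 3) (log2 fold change 0.33 ± 0.080 (SE), edgeR adjusted p = 0.0283). Prdm14 lost its call without N1300T 49 A, N1300T 49 B, N1300T 81 A, N1300T 81 B or any DKO library. No member was called without DKO A or without DKO C. Of 22 formative and primed genes, Foxd3, a forkhead factor of early pluripotent cells, was called higher (4.55%), at 44, 40.6 and 44.1 CPM in N1300T 49 and 45, 37.8 and 46 CPM in N1300T 81, against 33.7, 34.5 and 29.2 CPM in DKO (log2 fold change 0.40 ± 0.079 (SE), edgeR adjusted p = 0.0089). Foxd3 lost its call without DKO C. Without N1300T 81 C, 7 of these 22 were called.

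Markers of other lineages were mostly not called. In the mesendoderm list 1 of 18 was called, Wnt8a, which is also the 1 called of 23 Wnt targets (5.56% and 4.35%, beside 3.73% of all genes). Wnt8a was read at 3.34, 2.06 and 5.06 CPM in N1300T 49 and 2.25, 1.77 and 4.88 CPM in N1300T 81, against 7.46, 8.52 and 7.86 CPM in DKO (log2 fold change -1.32 ± 0.26 (SE), edgeR adjusted p = 0.0089), below DKO in all 6 N1300T libraries, and lost its call without DKO C. In the blood list 1 of 15 was called (6.67%). This was Myb, a factor of blood progenitors, at 8.45 ± 0.611 CPM in N1300T against 11.5 ± 0.635 CPM in DKO (SD, n = 6 and 3) (log2 fold change -0.44 ± 0.087 (SE), edgeR adjusted p = 0.00963). Myb lost its call without DKO A or DKO C. Acta2 was the 1 called of 13 fibroblast markers (7.69%). With 1 call in each, these lists do not stand apart from all genes. No primitive endoderm marker of 20 and no neuroectoderm marker of 10 was called by edgeR's quasi-likelihood test, and 6 and 3 of them had an unadjusted p under 0.05. DESeq2 called 3 and 0. Leaving out N1300T 81 C gave 5 mesendoderm, 6 Wnt target, 2 neuroectoderm, 2 blood and 4 primitive endoderm calls. The fibroblast list summed to 1742 to 2809 CPM in N1300T and 2081 to 2207 CPM in DKO.

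**Figure D4:**
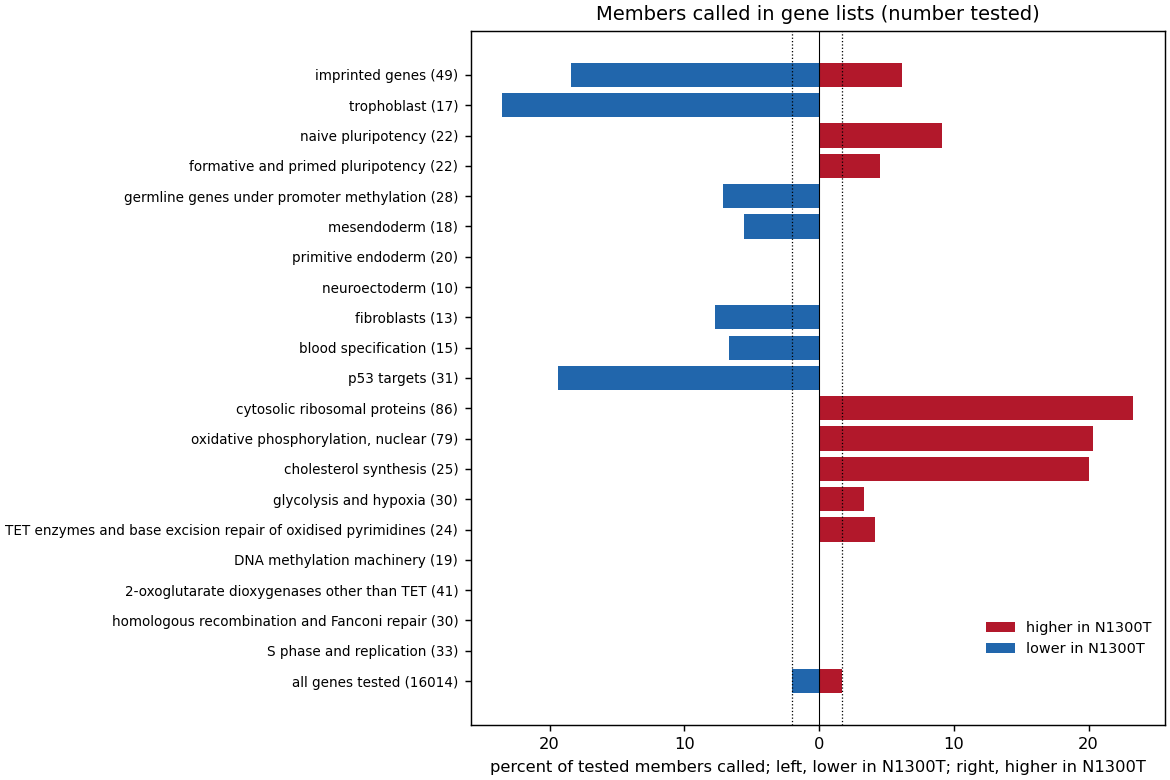
Percent of tested members called higher (right, red) and lower (left, blue) in N1300T against DKO, for 20 gene lists and for all genes tested, with the number tested in brackets. Dotted lines mark 1.7% higher and 2.02% lower over all genes. Imprinted, trophoblast and p53 lists extend to the left, and ribosomal protein, oxidative phosphorylation and cholesterol lists to the right.

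Among targets of p53 those called were lower. Of 31 tested 6 were called, all lower in N1300T (19.4%, beside 3.73% of all genes), the median log2 fold change was -0.18, and 25 of the 31 had a negative sign. Pmaip1, the death factor Noxa, was read at 67.3, 60.03 and 56.4 CPM in N1300T 49 and 53.6, 46.9 and 53.7 CPM in N1300T 81, against 71.8, 72 and 73.2 CPM in DKO (log2 fold change -0.37 ± 0.060 (SE), edgeR adjusted p = 0.00286) and was the member that kept its call without any 1 library. Ephx1, an epoxide hydrolase, stood at 29.3 ± 4.05 CPM in N1300T against 38.6 ± 1.65 CPM in DKO (SD, n = 6 and 3) (log2 fold change -0.40 ± 0.078 (SE), edgeR adjusted p = 0.0089). Tnfrsf10b, a death receptor, stood at 37.7 ± 4.44 CPM in N1300T against 49.1 ± 0.663 CPM in DKO (SD, n = 6 and 3) (log2 fold change -0.38 ± 0.077 (SE), edgeR adjusted p = 0.0107). Btg2, an antiproliferative factor, stood at 65.2 ± 9.26 CPM in N1300T against 82 ± 1.85 CPM in DKO (SD, n = 6 and 3) (log2 fold change -0.34 ± 0.078 (SE), edgeR adjusted p = 0.023). Mdm2, the ligase that degrades p53, was read at 158, 170.4 and 199 CPM in N1300T 49 and 144, 149 and 197 CPM in N1300T 81, against 221, 219 and 226 CPM in DKO (log2 fold change -0.39 ± 0.10 (SE), edgeR adjusted p = 0.0396), and Trp53inp1 stood at 279 ± 23.9 CPM in N1300T against 348 ± 16.3 CPM in DKO (SD, n = 6 and 3) (log2 fold change -0.32 ± 0.079 (SE), edgeR adjusted p = 0.0335). Mdm2 and Trp53inp1 were named after their values were seen. The count of 6 fell to 1 without DKO A, 3 without DKO B, 2 without DKO C and 3 without N1300T 49 A, N1300T 49 B or N1300T 81 B, and stood at 11 without N1300T 81 C. None was called in N1300T 49 alone and 5 in N1300T 81 alone, a contrast that was not itself tested over the list. The list medians were alike, at -0.195 in N1300T 49 and -0.15 in N1300T 81. The list summed to 2619 to 3075 CPM in N1300T and 3121 to 3190 CPM in DKO.

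Among ribosomal protein genes those called were higher by small amounts. Of 86 cytosolic ribosomal protein genes 20 were called, all higher (23.3%, beside 3.73% of all genes), the median log2 fold change was 0.21, and 85 of 86 had a positive sign. Rpl15 was read at 695, 615 and 616 CPM in N1300T 49 and 604, 623 and 632 CPM in N1300T 81, against 485, 501 and 459.8 CPM in DKO (log2 fold change 0.39 ± 0.051 (SE), edgeR adjusted p = 0.000339) and was the named member that kept its call without any 1 library. Rplp1, the most abundant of the genes called, was read at 1989.5, 1826 and 1798 CPM in N1300T 49 and 1356, 1760.0 and 1579 CPM in N1300T 81, against 1391, 1519.9 and 1113 CPM in DKO, with N1300T 81 A inside the DKO range (log2 fold change 0.35 ± 0.088 (SE), edgeR adjusted p = 0.0354). Rps14 stood at 973 ± 111 CPM in N1300T against 754 ± 107 CPM in DKO (SD, n = 6 and 3) (log2 fold change 0.37 ± 0.083 (SE), edgeR adjusted p = 0.0206), and Rps23 at 940.4 ± 97.3 CPM in N1300T against 747 ± 46.2 CPM in DKO (SD, n = 6 and 3) (log2 fold change 0.33 ± 0.067 (SE), edgeR adjusted p = 0.0115). Both lost their call without DKO A or DKO C, and Rplp1 without N1300T 49 A, N1300T 49 B, N1300T 81 B, DKO A or DKO C. Rps4l, a copy of Rps4x, stood at 463 ± 24.5 CPM in N1300T against 377 ± 34.5 CPM in DKO (SD, n = 6 and 3) (log2 fold change 0.29 ± 0.054 (SE), edgeR adjusted p = 0.00668). Rps4l lost its call without DKO C. Rpl13a, Rpl18, Rps20 and Rps16, named for their high level, had log2 fold changes of 0.21 ± 0.057 (SE), 0.27 ± 0.064 (SE), 0.26 ± 0.062 (SE) and 0.31 ± 0.082 (SE), and each lost its call without 4 to 8 of the 12 libraries taken 1 at a time. Ribosomal protein genes have many processed copies in the mouse genome, so single counts among them are uncertain.

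The number of ribosomal protein genes called rested on few libraries. It was 36 in N1300T 49 alone and 1 in N1300T 81 alone, with list medians of 0.29 and 0.13, and the difference between the preparations was not tested over the list. It was 2 without DKO A, 1 without DKO C, 5 without N1300T 49 A, 8 without N1300T 49 B, 5 without N1300T 81 B and 12 without Tet1KO A, and 34 without N1300T 49 C and 37 without N1300T 81 A. Summed ribosomal protein CPM was 82028, 74394 and 72482 in N1300T 49 and 65474, 73917 and 69220 in N1300T 81, against 64530, 67731 and 58792 in DKO, so the N1300T 81 and DKO ranges overlap. Scaling by library size alone gave 12 called.

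Among nuclear genes of oxidative phosphorylation those called were higher. Of 79 tested 16 were called, all higher (20.3%, beside 3.73% of all genes), with a median log2 fold change of 0.20 and a positive sign for all 79. Ndufa6, a subunit of complex I, was read at 56.1, 49.6 and 50.8 CPM in N1300T 49 and 50.7, 55.4 and 50.5 CPM in N1300T 81, against 41.9, 42.9 and 38.3 CPM in DKO (log2 fold change 0.35 ± 0.060 (SE), edgeR adjusted p = 0.00401). Uqcrq of complex III stood at 154 ± 11 CPM in N1300T against 124 ± 13.3 CPM in DKO (SD, n = 6 and 3) (log2 fold change 0.32 ± 0.070 (SE), edgeR adjusted p = 0.0181). Atp5g1 of the ATP synthase stood at 266 ± 21.4 CPM in N1300T against 213 ± 13.6 CPM in DKO (SD, n = 6 and 3) (log2 fold change 0.32 ± 0.071 (SE), edgeR adjusted p = 0.0184), and Ndufa7 of complex I at 128 ± 12.3 CPM in N1300T against 101 ± 10.2 CPM in DKO (SD, n = 6 and 3) (log2 fold change 0.34 ± 0.077 (SE), edgeR adjusted p = 0.0212). All 4 lost their call without DKO C, Uqcrq, Atp5g1 and Ndufa7 also without DKO A, and Ndufa7 without N1300T 49 A. The count was 20 in N1300T 49 alone and 2 in N1300T 81 alone, with list medians of 0.26 and 0.14, and this difference was not tested over the list. It was 1 without DKO A, 0 without DKO C, 4 without N1300T 49 A, 9 without N1300T 49 B, 4 without N1300T 81 B and 29 without N1300T 81 A. The list summed to 12411 to 14288 CPM in N1300T and 11302 to 12560 CPM in DKO. None of the 13 mitochondrially encoded genes was called by edgeR's quasi-likelihood test, none had an unadjusted p under 0.05, DESeq2 called 0, and their median was -0.09.

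Transcript length moved with these groups. Among 416 genes with an exon length under 1000 bases and at least 5 CPM, 48 were called higher (11.5%) and 4 lower (0.962%), with a median log2 fold change of 0.16. Among 2561 genes with more than 5000 bases, 21 were called higher (0.82%) and 88 lower (3.44%), with a median of -0.04. Leaving out ribosomal protein and oxidative phosphorylation genes, the 335 other short genes had a median of 0.13, with 27 higher and 4 lower. The median log2 distance of short genes from the DKO mean was 0.28, 0.15 and 0.17 in the N1300T 49 libraries and 0.01, 0.16 and 0.11 in the N1300T 81 libraries, against 0.02, 0.07 and -0.09 in the DKO libraries. With offsets for exon length in each library, an alternative chosen after seeing the data, 7 ribosomal protein genes and 3 oxidative phosphorylation genes were called, with medians of 0.12 and 0.10, and 445 genes in all. The part of length in the other results was not tested further. The same offsets left 11 imprinted and 4 trophoblast members called.

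**Figure D5:**
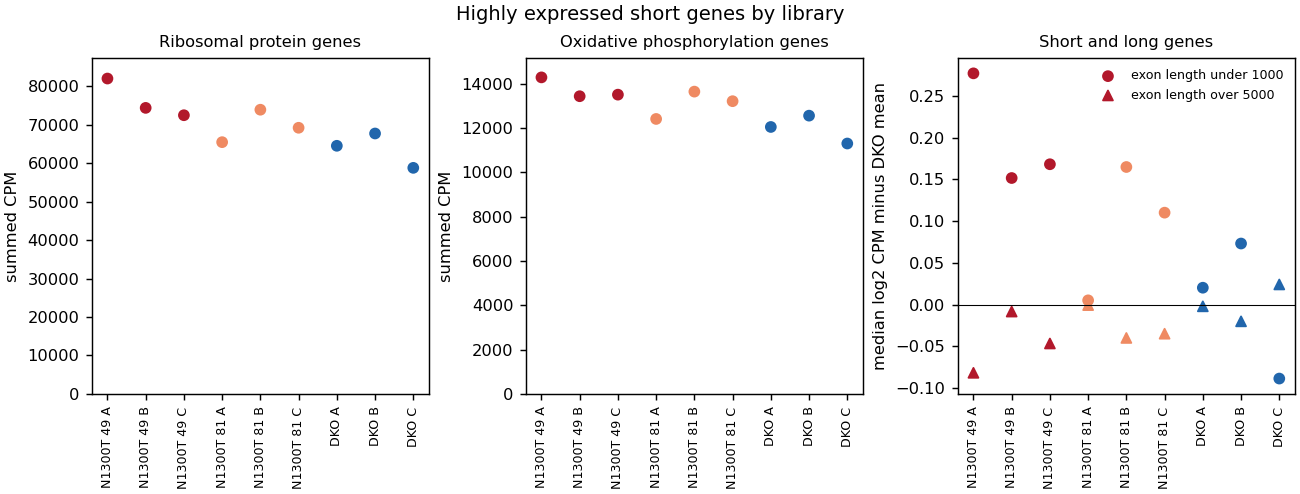
Summed CPM of 86 ribosomal protein genes (left) and 79 nuclear oxidative phosphorylation genes (middle), and the median log2 CPM minus the DKO mean (right) of genes with an exon length under 1000 bases (circles) and over 5000 bases (triangles), in the libraries of N1300T 49, N1300T 81 and DKO. N1300T 49 A is highest in all panels for short genes and DKO C lowest, and N1300T 81 A lies within the DKO range.

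Among genes of cholesterol synthesis those called were higher by small amounts. Of 25 tested 5 were called, all higher (20%, beside 3.73% of all genes), with a median log2 fold change of 0.12 and a positive sign for 22. Acat2, which makes acetoacetyl-CoA, was read at 88.3, 90.7 and 80.4 CPM in N1300T 49 and 92.8, 95.6 and 86.3 CPM in N1300T 81, against 64.4, 76.1 and 64.3 CPM in DKO (log2 fold change 0.38 ± 0.066 (SE), edgeR adjusted p = 0.00401). Fdps, which makes farnesyl diphosphate, stood at 123.4 ± 12.2 CPM in N1300T against 97.8 ± 1.88 CPM in DKO (SD, n = 6 and 3) (log2 fold change 0.34 ± 0.075 (SE), edgeR adjusted p = 0.0192). Insig1, the feedback inhibitor of the pathway, stood at 112 ± 10.9 CPM in N1300T against 88.5 ± 2.83 CPM in DKO (SD, n = 6 and 3) (log2 fold change 0.34 ± 0.080 (SE), edgeR adjusted p = 0.0248). Lss, lanosterol synthase, stood at 67.2 ± 3.51 CPM in N1300T against 57.1 ± 1.35 CPM in DKO (SD, n = 6 and 3) (log2 fold change 0.23 ± 0.062 (SE), edgeR adjusted p = 0.0472), and Mvk, mevalonate kinase, named after its values were seen, at 28.7 ± 2.04 CPM in N1300T against 23.8 ± 1.66 CPM in DKO (SD, n = 6 and 3) (log2 fold change 0.27 ± 0.072 (SE), edgeR adjusted p = 0.0481). None of the 5 was called without DKO A or without DKO C, 1 was without DKO B, 2 without N1300T 49 B, and 3 without N1300T 49 A, N1300T 49 C, N1300T 81 A or N1300T 81 B. The summed level was 2405 to 2568 CPM in N1300T and 2257 to 2287 CPM in DKO.

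Of the repair and proliferation lists, 1 member was called, and over all genes tested 3.73% were called. None of 30 genes of homologous recombination and Fanconi repair and none of 33 genes of S phase was called by edgeR's quasi-likelihood test, with 4 and 8 at an unadjusted p under 0.05 and medians of 0.05 and 0.05. DESeq2 called 0 and 1. Of 27 genes of G2 and mitosis, Cenpa, the centromeric histone, was called higher (3.7%), at 129 ± 9.13 CPM in N1300T against 108 ± 5.61 CPM in DKO (SD, n = 6 and 3) (log2 fold change 0.26 ± 0.063 (SE), edgeR adjusted p = 0.0294). Cenpa lost its call without N1300T 49 A, N1300T 49 B, N1300T 81 B or any DKO library. Of 30 glycolytic and hypoxia genes, Ldhb, a lactate dehydrogenase, was called higher (3.33%), at 184 ± 24.5 CPM in N1300T against 146 ± 6.56 CPM in DKO (SD, n = 6 and 3) (log2 fold change 0.33 ± 0.088 (SE), edgeR adjusted p = 0.0481), while the median of the list was 0.23. Ldhb lost its call without N1300T 49 A, N1300T 49 B, N1300T 81 A, N1300T 81 B, Tet1KO A or any DKO library, whereas 11 members were called without N1300T 81 C. None of 23 listed replication-dependent histone genes was called by edgeR and 0 by DESeq2, while their median log2 fold change was 0.52 and 8 had an unadjusted p under 0.05. Hist1h4h, a histone gene outside that list that was chosen after its values were seen, was called higher at 0.301 ± 0.0553 CPM in N1300T against 0.0625 ± 0.01203 CPM in DKO (SD, n = 6 and 3) (log2 fold change 2.18 ± 0.52 (SE), edgeR adjusted p = 0.026), with 10 counts in all in DKO. Hist1h4h lost its call without N1300T 49 A, N1300T 49 B, N1300T 81 B or any DKO library.

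Several stress, signalling, matrix and oocyte lists gave 1 or 2 calls each, beside 3.73% of all genes. Among 33 genes of the integrated stress response, 2 were called (6.06%). Atf3, a stress-induced factor, was lower at 0.866 ± 0.285 CPM in N1300T against 1.86 ± 0.247 CPM in DKO (SD, n = 6 and 3) (log2 fold change -1.12 ± 0.23 (SE), edgeR adjusted p = 0.0138). Slc7a3, a transporter of arginine and lysine, was higher at 215 ± 12.7 CPM in N1300T against 175 ± 1.72 CPM in DKO (SD, n = 6 and 3) (log2 fold change 0.30 ± 0.054 (SE), edgeR adjusted p = 0.00644). Atf3 lost its call without DKO B or DKO C, and Slc7a3 without DKO A or DKO C. Of 21 heat shock chaperones 1 was called (4.76%): Hspa4l was lower at 3.702 ± 0.629 CPM in N1300T against 5.72 ± 0.652 CPM in DKO (SD, n = 6 and 3) (log2 fold change -0.63 ± 0.14 (SE), edgeR adjusted p = 0.0172). Hspa4l lost its call without DKO A or DKO C. Of 21 targets of ERK signalling 1 was called (4.76%), and Phlda1 was lower at 12.4 ± 2.66 CPM in N1300T against 17.5 ± 1.76 CPM in DKO (SD, n = 6 and 3) (log2 fold change -0.51 ± 0.14 (SE), edgeR adjusted p = 0.0488). Phlda1 lost its call without N1300T 49 A, N1300T 49 B, N1300T 81 A, N1300T 81 B, Tet1KO A or any DKO library. Of 20 genes on the LIF and STAT3 list 1 was called (5%), and the kinase Sgk1 was higher at 161 ± 21.2 CPM in N1300T against 133 ± 5.78 CPM in DKO (SD, n = 6 and 3) (log2 fold change 0.27 ± 0.074 (SE), edgeR adjusted p = 0.0482). Sgk1 lost its call without N1300T 49 A, N1300T 81 A, Tet1KO A or any DKO library. Of 12 Myc family genes and partners 1 was called (8.33%), and Mycl was higher at 36.3 ± 5.001 CPM in N1300T against 27.4 ± 0.681 CPM in DKO (SD, n = 6 and 3) (log2 fold change 0.41 ± 0.11 (SE), edgeR adjusted p = 0.0398). Mycl lost its call without N1300T 49 A, N1300T 49 B, N1300T 81 A, N1300T 81 B, Tet1KO A or any DKO library. Of 33 Polycomb and H3K27 enzyme genes 1 was called (3.03%), and Pcgf3 was lower at 52.8 ± 1.65 CPM in N1300T against 60.9 ± 4.01 CPM in DKO (SD, n = 6 and 3) (log2 fold change -0.21 ± 0.053 (SE), edgeR adjusted p = 0.0397). Pcgf3 lost its call without N1300T 49 A, N1300T 81 A, N1300T 81 B, DKO A, DKO C or Tet1KO A. Of 35 collagens, laminins and integrins 1 was called (2.86%), and Col18a1, the collagen that gives endostatin, was lower at 276 ± 38.3 CPM in N1300T against 353 ± 12.4 CPM in DKO (SD, n = 6 and 3) (log2 fold change -0.35 ± 0.092 (SE), edgeR adjusted p = 0.0412). Col18a1 lost its call without N1300T 49 A, N1300T 49 B, N1300T 81 A, N1300T 81 B or any DKO library. Of 10 oocyte complex and Nlrp genes 2 were called (20%), Nlrp4a higher and Nlrp4f lower. Nlrp4f stood at 1.41 ± 0.4695 CPM in N1300T against 2.56 ± 0.133 CPM in DKO (SD, n = 6 and 3) (log2 fold change -0.88 ± 0.24 (SE), edgeR adjusted p = 0.0483). Nlrp4f lost its call without N1300T 49 A, N1300T 49 B, N1300T 81 A, N1300T 81 B, Tet1KO A or any DKO library. Of 23 clustered protocadherins 1 was called (4.35%), and Pcdhga12 was higher at 2.76 ± 0.339 CPM in N1300T against 1.65 ± 0.301 CPM in DKO (SD, n = 6 and 3) (log2 fold change 0.73 ± 0.17 (SE), edgeR adjusted p = 0.0247). Pcdhga12 lost its call without N1300T 49 B or any DKO library. None of 16 genes of Nodal signalling was called by edgeR's quasi-likelihood test, 3 had an unadjusted p under 0.05, and DESeq2 called 1.

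The secreted factors Trh and Mif were among the most abundant genes called. Trh, the precursor of thyrotropin-releasing hormone, was read at 1009, 904 and 823 CPM in N1300T 49 and 967, 791 and 842 CPM in N1300T 81, against 670.3, 705 and 669 CPM in DKO (log2 fold change 0.38 ± 0.087 (SE), edgeR adjusted p = 0.0209). Trh lost its call without any DKO library. Mif, a cytokine encoded by a very short gene with processed copies in the mouse genome, stood at 684 ± 47.6 CPM in N1300T against 569 ± 63.5 CPM in DKO (SD, n = 6 and 3) (log2 fold change 0.27 ± 0.072 (SE), edgeR adjusted p = 0.0488). Mif lost its call without N1300T 49 A, N1300T 49 B, N1300T 81 B, DKO A, DKO C, Tet1KO A or Tet1KO B. Among 273 solute carriers tested 15 were called (5.49%, beside 3.73% of all genes), 3 higher and 12 lower, led by Slc15a2. That count was 3 without DKO A, 6 without DKO B and 1 without DKO C. Slc39a11, a zinc transporter, was higher at 40.6 ± 4.55 CPM in N1300T against 31.7 ± 1.11 CPM in DKO (SD, n = 6 and 3) (log2 fold change 0.35 ± 0.066 (SE), edgeR adjusted p = 0.00759). Slc39a11 lost its call without DKO C.

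The genes called were spread over the genome. The median log2 fold change of the autosomes ran from -0.03 to 0.03, and no autosome had fewer than 2.35% (chromosome 13) or more than 5.25% (chromosome 9) of its tested genes called. On X 33 of 529 genes were called (6.24%), 13 higher and 20 lower. There were 39 pairs of neighbouring tested genes called in the same direction, among them Krt8 with Krt18, Sgce with Peg10, Gbp2b with Gbp2 and Oas1g with Oas1a. The genes called higher had a median exon length of 1865 bases and those called lower 4251, against 3165 over all genes tested.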

How the data were processed

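Total RNA was sequenced with paired-end reads, per the labels. The deposited values are the authors' counts per gene in 1 table. The submitters' processing notes name mm10 and DESeq2. Neither aligner, counter nor strand setting is stated there, so genes that overlap or are antisense to each other cannot be told apart. Counts of 2 (20282 values) outnumber counts of 1 (5990 values), as they would if both mates of a pair were counted, so counts may not be independent reads. Halving them gave 692 called genes in place of 597. No per-sample column was left unused.

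From those counts, TMM factors (0.979 to 1.02), filterByExpr and edgeR 4.0.16 (R 4.3.3) quasi-likelihood fits over 12 libraries in 4 groups of 3 were computed. The contrast was the mean of N1300T 49 and N1300T 81 minus DKO, and SE is the absolute log2 fold change divided by the square root of F. The common biological coefficient of variation was 0.0859 with 9.11 prior degrees of freedom. Adjusted p-values are Benjamini-Hochberg over all genes tested. DESeq2 1.42.0 was an alternative, and limma 3.58.1 was loaded by edgeR. The fitting steps were tested on simulated data.

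Symbols, positions and sequences are RefSeq GRCm38.p6, the assembly of mm10. Promoter windows were found for 79.1% of genes called higher, 77.8% of those called lower and 73.1% of those tested, under the 80% needed, so a comparison of CG between these classes is void and is not given.

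The members of the comparison and the gene lists were chosen with earlier results of these data known. Genes were named by a rule: the largest rises and falls called without overlap at 1 CPM or more, the smallest adjusted p, the most abundant called genes, up to 4 called members of each list, Tet1, Tet2, Tet3 and Tdg, genes that also differed between preparations, and neighbouring runs. Genes with predicted, clone or pseudogene names were left out of the largest changes and of the smallest adjusted p. That gave 99 genes, some of which are not reported here. Genes added after their values were seen are Igf2, Sgce, Grb10, Mcts2, Zrsr1, Impact, H19, Blcap, Commd1, Trappc9, Mdm2, Trp53inp1, Mvk, Rbm12b2, Id1, Oas1g, Gbp2b, Chrac1, 1700039I01Rik, Gm32885, Gm21283 and Hist1h4h.

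The letters A, B and C were checked as pairs from the data, by the correlation of deviations from group means. Same-lettered libraries of N1300T 49 and N1300T 81 correlated at 0.223, 0.552 and 0.500, and those of N1300T and DKO at -0.237 to 0.158, so letters pair the preparations but are only shared names between N1300T and DKO. The main fit holds no block and treats the N1300T libraries as independent. Its SE for N1300T against DKO may therefore be too small, and its test between the preparations is unpaired.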

Additional observations from a re-analysis of the deposited data

Results flagged for a closer look

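For 13 of the genes named, out of 58 genes called between the preparations, the distance from DKO differed between the preparations, by the test of N1300T 49 against N1300T 81 in the same fit (edgeR, Benjamini-Hochberg adjusted p, 3 libraries a group). The log2 difference, N1300T 49 minus N1300T 81, was 2.245 ± 0.298 for Eif2s3y (SE, adjusted p = 0.000782), 9.726 ± 0.237 for Ddx3y (adjusted p = 2.47e-14), 9.357 ± 0.302 for Uty (adjusted p = 1.45e-12) and 2.499 ± 0.247 for Uba1y (adjusted p = 1.98e-05), all on chromosome Y. The values for Ddx3y and Uty are fitted against libraries with 0 to 6 counts and depend on the prior count. It was 5.909 ± 0.227 for the X-linked Fmr1nb (adjusted p = 1.8e-11). Genes lower in N1300T 49 were Arhgap30 at -2.99 ± 0.148 (adjusted p = 7.18e-10), the predicted Gm32885 at -2.972 ± 0.133 (adjusted p = 1.79e-10), Ushbp1 at -1.144 ± 0.201 (adjusted p = 0.0111), Hsf2bp at -1.043 ± 0.0945 (adjusted p = 7.61e-06) and Slc35c1 at -0.608 ± 0.0857 (adjusted p = 0.00126). Among imprinted genes it was 0.9616 ± 0.118 for Grb10 (adjusted p = 0.000311), -0.9405 ± 0.0827 for Zrsr1 (adjusted p = 5.69e-06) and -1.03 ± 0.118 for H19 (adjusted p = 0.000131). No cause of these differences was tested.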

How the results depend on the processing

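The count of 597 genes was 577 with DESeq2-style RLE factors, 667 with library size alone, 600 with a filter at 1 CPM in 3 libraries, 667 with the 9 libraries alone, 424 with the 6 N1300T libraries as 1 group, 417 off chromosomes 6, 8 and 11 and 445 with length offsets. It moved further with no low-count filter to 1481 (764 higher, 717 lower, 146 over 2-fold), with DESeq2 to 1067 (532 higher, 535 lower), with a test for more than a 1.5-fold difference to 32 (5 higher, 27 lower, 30 over 2-fold), with N1300T 49 alone to 366 (160 lower, 46 over 2-fold) and with N1300T 81 alone to 379 (166 higher, 213 lower). With the letters as a replicate block it was 1497 (700 higher, 797 lower), although no pairing by letter was seen between N1300T and DKO. Leaving out N1300T 49 C and N1300T 81 C, chosen after seeing the data, gave 1488 (651 higher, 837 lower, 206 over 2-fold). With 1 library left out at a time the counts ran from 107 to 1053 in all, 26 to 464 higher, 81 to 589 lower and 41 to 144 over 2-fold. For N1300T 49 against DKO (366) the counts were 1044 with no filter, 806 with DESeq2, 21 at 1.5-fold, 1011 with the replicate block, 808 without both C libraries, 212 with length offsets and 47 to 552 with 1 library left out. For N1300T 81 against DKO (379) they were 1199, 730, 28, 1110, 1101 without both C libraries and 91 to 933. Between the preparations (58) they were 244, 108, 10, 105 with the replicate block, 38 off chromosomes 6, 8 and 11 and 39 to 80. Of 121 genes named, 113 were called, and 36 of these kept their call in each fit that held them, leaving aside alternatives chosen after seeing the data, single preparations and the 1.5-fold test. The fits off chromosomes 6, 8 and 11 and off X and Y do not hold the genes of those chromosomes. Signs reversed for Fmr1nb in N1300T 49 alone (0.58), for Tet3 without N1300T 49 A (0.00772), without DKO A (0.0228; -0.11 to 0.0228 over the libraries) and with length offsets (0.0147), and for the log2 fold change of Trappc9 with library size alone (-0.00761), in N1300T 81 alone (-0.00103) and without N1300T 49 C (-0.0107, and -0.0107 to 0.0598 over the libraries left out). H19 reversed with 1 N1300T group (0.072), in N1300T 81 alone (0.49), without N1300T 49 C (0.023), N1300T 81 C (0.016) or DKO B (0.024), and without both C libraries (0.064), with -0.10 to 0.024 over the libraries left out. Among the genes that changed call or sign the cause was not tested. Genes under about 1 CPM rest on few counts.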
